A study of Danio rerio with 4 samples.

Results

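The tolloid proteases and their substrate Chordin were followed through 4 RNA libraries of pooled zebrafish hearts, 2 from tie1 mutants and 2 from siblings. The members are the rows of the deposited table named tll1, bmp1a, bmp1b and chrd, and all 4 were found among its 16662 genes. The embryos were taken at 48 hours post fertilisation (hpf), their hearts were removed with needles, and they carried Tg(kdrl:eGFP), a transgene in which the kdrl promoter drives a fluorescent protein in endothelium. The mutant group is labelled tie1 KO, with no allele named, and the other group tie1 WT, although the description of the series counts heterozygotes among the siblings, so that group is called siblings here. Each library is a pool of hearts, their number not stated in the labels. Nothing beyond the labels says that pools came from separate clutches, so a p-value speaks only of how these pools vary, which may be technical.

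Tolloid proteases are secreted zinc metalloproteases of the astacin family. They cleave Chordin, an extracellular antagonist that holds bone morphogenetic proteins (BMPs) away from their receptors, and so release BMP signalling. They also mature the matrix, by trimming procollagens and by activating lysyl oxidase, which crosslinks collagen. In zebrafish, tll1 is the gene called mini fin or tolloid, bmp1a and bmp1b are the copies of the gene of bone morphogenetic protein 1, which despite its name is a protease, and chrd encodes Chordin. Loss of Tll1 in the mouse disturbs septation of the heart. Tie1 is an orphan receptor tyrosine kinase of endothelium and of endocardium, the inner lining of the heart. The published study of these fish centred on tll1, so the values of that gene describe one the study itself had chosen.

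Values are the authors' normalised counts, rounded to whole numbers. The library totals lay between 2154702 and 2648465. From the spacing of low values in each library, 1 unit corresponded to between 0.75 and 1.341 reads, which puts the libraries at an estimated 1770000 to 3240000 assigned reads. Mitochondrial ribosomal RNA took 43.4% and 37.6% of the total in the mutants compared with 32.9% and 30.4% in the siblings. The targeted gene, tie1, stood at 123 and 88 in the mutant libraries and at 558 and 300 in the sibling libraries. Both mutant libraries lay below both sibling libraries, which matches the labels. The heart muscle gene myl7 was abundant in every library, at 3842 and 1966 against 3595 and 2469, and the groups overlapped.

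Of the 2 proteases that could be tested, tll1 and bmp1a, both had lower values in the mutant pools, and tll1 had the larger difference. The gene (ENSDARG00000037429) spans chr1:20733102-20826023 of GRCz11 on the minus strand and is protein coding. Its normalised values were 60 and 31 in mutants 1 and 2, and 140 and 136 in siblings 1 and 2. The groups did not overlap, the sibling pools were nearly equal, and mutant 2 was the lowest pool. The means were 45.5 ± 20.5 in the mutants and 138 ± 2.83 in the siblings (SD, n = 2 each). With the spacing of each library, these values rest on an estimated 54 and 23 reads in the mutants compared with 188 and 156 in the siblings. On the log2(value + 1) scale the fold change, mutant minus sibling, was −1.65 ± 0.32 (SE), a fold of 0.318, with a 95% interval from −2.38 to −0.92.

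In limma over the 12118 genes with a mean of at least 10, the p of tll1 was 0.00065 before adjustment and 0.21 after Benjamini-Hochberg adjustment, so it did not pass the threshold of 0.05. None of the 12118 genes passed it (0.0%). At an unadjusted p under 0.05, 4.34% of the genes had lower and 2.61% higher mutant values. By p, tll1 was number 31 of the genes with lower mutant values and tie1 number 12. Both mutant libraries had less than either sibling library in 18.3% of the genes tested and more in 15.7%, so a lack of overlap alone is common. The distance between the groups was less so, since the lowest sibling value of tll1 was 2.25-fold above its highest mutant value, on value + 1, and 42 of the 12118 genes had a larger distance in that direction.

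The paralog bmp1a had a smaller difference of the same sign. It lies on the minus strand at chr8:51165392-51293301 of GRCz11 (ENSDARG00000028071). Its values were 71 and 97 in the mutants compared with 128 and 115 in the siblings, an estimated 64, 73, 172 and 132 reads. The groups did not overlap, and here mutant 1 was the lowest pool, while mutant 2 was the lowest for tll1. The means were 84 ± 18.4 and 122 ± 9.19 (SD, n = 2 each). The log2 fold change was −0.54 ± 0.25 (SE), a fold of 0.687, with a 95% interval from −1.11 to 0.02 and a limma adjusted p of 0.718. The unadjusted p was 0.0575, so bmp1a passed neither threshold.

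The other copy, bmp1b, was at the edge of detection. It lies at chr10:40848354-40939706 on the minus strand (ENSDARG00000028053), and its values were 1 and 3 in the mutants compared with 4 and 0 in the siblings, an estimated 1, 2, 5 and 0 reads. The groups overlapped, and a difference was not detectable at this depth.

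The substrate gene chrd was as low. It lies at chr15:46790676-46828958 on the minus strand (ENSDARG00000006110) and had values of 8 and 1 for the mutants and of 1 and 1 for the siblings, an estimated 7, 1, 1 and 1 reads. One pool, mutant 1, stood above the others, and mutant 2 equalled both siblings. With means of 2 and 2.75 over the 4 libraries, bmp1b and chrd were under the minimum mean of 10 and were not tested. Thus 2 of the 4 members passed that minimum, tll1 and bmp1a. Transcript lengths are not part of the table, so the levels of the 4 genes are not ranked against each other.

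**Figure D1:**
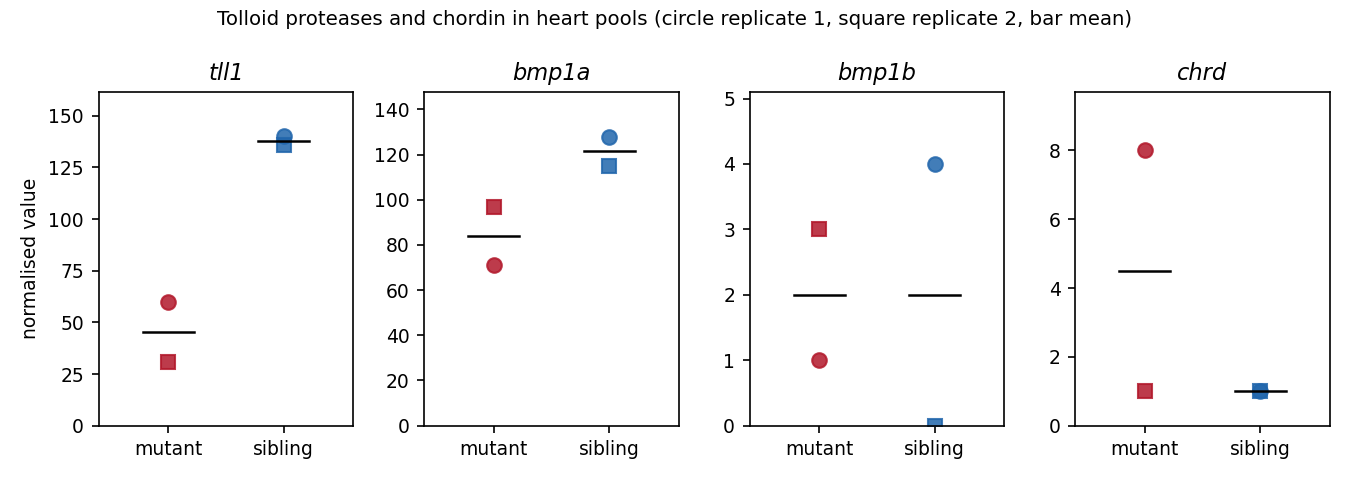
Normalised value (vertical axis, from 0, its own scale in each panel) of tll1, bmp1a, bmp1b and chrd in the mutant and sibling pools, with circles for replicate 1, squares for replicate 2 and bars for the mean of 2 pools. The mutant values of tll1 (60 and 31) and bmp1a (71 and 97) lie below the sibling values (140 and 136, 128 and 115), while bmp1b stays between 0 and 4 and chrd between 1 and 8.

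Relative to a reference gene each for endothelium, endocardium and heart muscle, tll1 stayed lower in the mutants, while bmp1a overlapped between the groups. In bulk pools, fewer cells of a type and less RNA per cell cannot be told apart, and a ratio within a library sets the scaling of the library aside. The reference for endothelium was cdh5, which encodes VE-cadherin of the junctions between endothelial cells, with values of 1313 and 790 against 1883 and 1117. The reference for endocardium was nfatc1, a transcription factor gene, with 165 and 147 against 195 and 135. Both references overlapped between the groups, at log2 fold changes of −0.51 ± 0.32 for cdh5 and −0.06 ± 0.25 for nfatc1. Their ratio did not overlap. The value of cdh5 was 796% and 537% of that of nfatc1 in the mutants compared with 966% and 827% in the siblings. The log2 difference was −0.45, and 13.2% of the genes tested had both mutants below both siblings relative to nfatc1.

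The value of tll1 was 4.57% and 3.92% of that of cdh5 in the mutants compared with 7.43% and 12.2% in the siblings. Both mutant ratios lay below both sibling ratios, although the siblings differed from each other more than the mutants did. The log2 difference of the ratios, mutant minus sibling, was −1.14, a fold of 0.453, with group SDs of 0.14 in the mutants and 0.50 in the siblings. Only 1.88% of the genes tested had both mutant libraries below both sibling libraries in their ratio to cdh5, while 26.3% had both above.

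Relative to nfatc1, tll1 stood at 36.4% and 21.1% in the mutants and at 71.8% and 101% in the siblings. The groups did not overlap here either, as for 13.2% of the genes tested. The log2 difference was −1.59, with SDs of 0.54 and 0.34. Relative to the heart muscle gene myl7, tll1 stood at 1.56% and 1.58% against 3.89% and 5.51%, a log2 difference of −1.54, and 6.18% of genes had no overlap in that direction. The exact two-sided permutation p was 0.33 for each of these 3 ratios, which is the smallest that 2 against 2 libraries allow, so none can pass.

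For bmp1a the groups overlapped in each of these ratios, and the log2 differences were smaller than those of tll1. Relative to cdh5 they were 5.41% and 12.3% in the mutants compared with 6.8% and 10.3% in the siblings, with both siblings between the mutants. The log2 difference was −0.03, with an exact permutation p of 1. Relative to nfatc1 they were 43% and 66% against 65.6% and 85.2%, a log2 difference of −0.48. Here the overlap was slight, with mutant 2 at 65.99% and sibling 1 at 65.64%. Without 1 library that difference ranged from −0.79 to −0.18. Relative to myl7 the ratios were 1.85% and 4.93% against 3.56% and 4.66%, a difference of −0.43 with overlap. The ratio of bmp1a to cdh5 was lowest in mutant 1 and highest in mutant 2.

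The difference between the proteases can be read within each library. The value of tll1 was 84.5% and 32% of that of bmp1a in the mutants compared with 109% and 118% in the siblings. Both mutant ratios lay below both sibling ratios, but the mutant pools differed widely from each other. How common this lack of overlap is for ratios to bmp1a was not counted over all genes. The log2 difference of this ratio was −1.11, with SDs of 0.97 and 0.08 and an exact permutation p of 0.33. Without mutant 2 it was −0.42, and without mutant 1 it was −1.80. Ratios to bmp1b and chrd rest on a few reads and are not described further.

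Relative to the targeted gene, tll1 overlapped between the groups. Its ratio to tie1 was 48.8% and 35.2% in the mutants compared with 25.1% and 45.3% in the siblings, with a log2 difference of 0.31 and an exact permutation p of 0.667. That ratio was chosen after its values were seen, and it turns to −0.11 without sibling 1. From the mean log2 value of the siblings, tll1 deviated by −1.19 in mutant 1 and by −2.12 in mutant 2, and tie1 by −1.73 and −2.20. Each sibling lay 0.02 from that mean for tll1 and 0.45 from it for tie1.

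**Figure D2:**
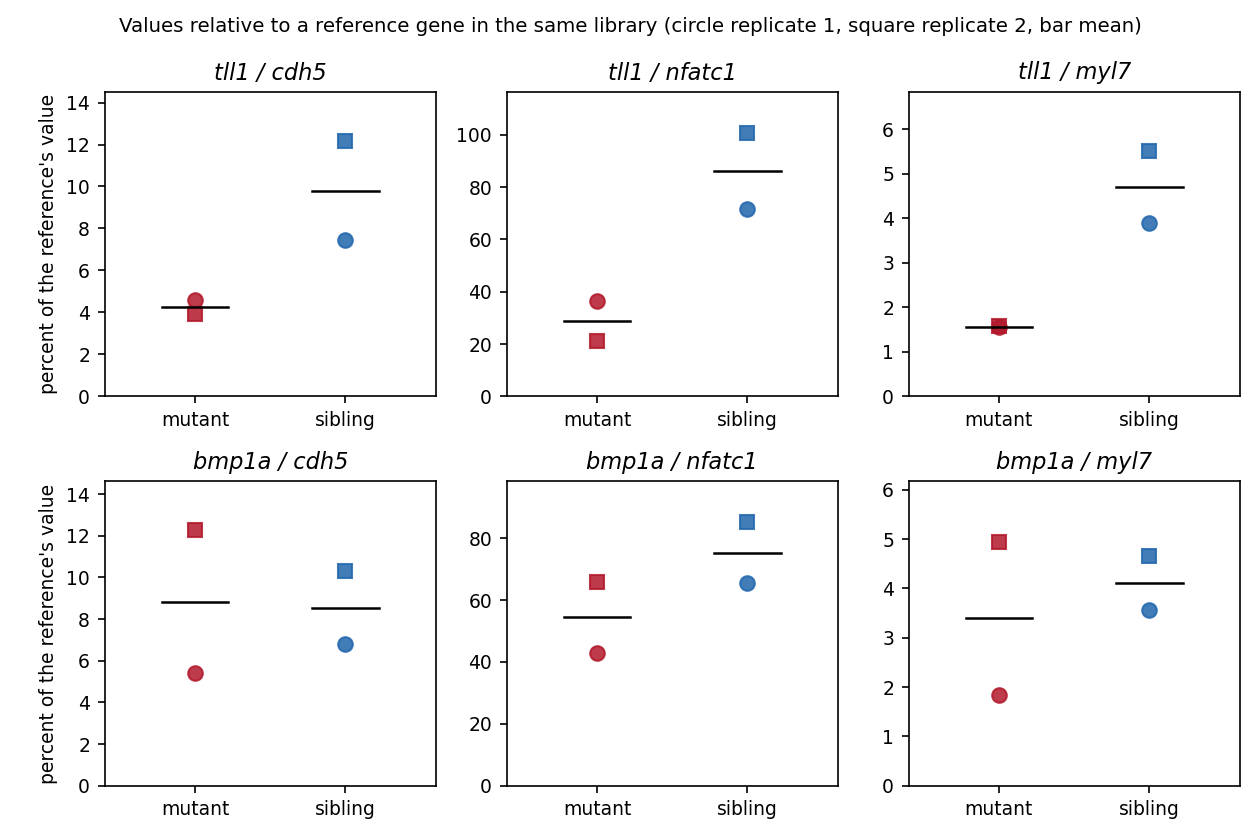
Value of tll1 (upper row) and bmp1a (lower row) as a percent of the value of cdh5, nfatc1 or myl7 in the same library (vertical axes from 0, own scale in each panel), with circles for replicate 1, squares for replicate 2 and bars for the mean of 2 pools. For tll1 the mutants lie below the siblings against each reference (4.57% and 3.92% against 7.43% and 12.2% for cdh5), while for bmp1a the groups overlap in all 3 panels.

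Markers of tissues other than endothelium also differed between the pools. The summed value of 15 erythrocyte rows was 5391 and 5064 in the mutants compared with 13817 and 11986 in the siblings. For 14 of them, 93.3%, the mutants lay under both siblings, beside 18.3% of all genes tested. The median log2 fold change of the 15 rows was −1.40, close in size to that of tll1. As a share of that sum, tll1 stood at 1.11% and 0.612% in the mutants and at 1.01% and 1.13% in the siblings, so these groups overlapped, with a log2 difference of −0.38 (exact permutation p = 0.667). The share of bmp1a in that sum was 1.32% and 1.92% against 0.926% and 0.959%, higher in both mutants. The part of erythrocytes in the results for tll1 and bmp1a was not tested.

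Skeletal muscle markers summed to 1724 and 1960 against 3341 and 3134, with a median of −1.36. A few abundant genes weigh most in these sums, such as acta1b with 962 and 748 against 1359 and 1316. The mutant pools differed more than their sums, since the median log2 deviation from the sibling mean was −2.02 in mutant 1 and −0.47 in mutant 2. In 9 of 14 tested rows, 64.3%, both mutants were below both siblings, beside 18.3% of all genes tested. The share of tll1 in that sum was 3.48% and 1.58% against 4.19% and 4.34%, lower in both mutants, with a log2 difference of −0.86. Without mutant 2 that difference was −0.29. For bmp1a the share was 4.12% and 4.95% against 3.83% and 3.67%, higher in both mutants. Of these markers myog, a muscle regulator gene, was at 0 in mutant 1. The part of skeletal muscle was not tested either.

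The endothelial markers, with tie1 among them, summed to 4445 and 2872 in the mutants and to 6792 and 4358 in the siblings, so the sum of mutant 1 lay above that of sibling 2. Of 25 tested, 21 were lower on average, with a median of −0.33. Of the 25, only tie1 had a lower fold change than tll1. The next were flt1, at −1.29 ± 0.27 with 39 and 35 against 106 and 80, and tek, at −0.97 ± 0.28, both receptor genes named after their values were seen. As a share of the sum without tie1, tll1 stood at 1.39% and 1.11% against 2.25% and 3.35%, a log2 difference of −1.14. The largest values in that sum are cdh5, the reference above, and kdrl, with 1313 and 664 against 2083 and 1334. The share therefore largely repeats the ratio to cdh5 and is not a separate result. All 22 tested markers of endocardium and valves had a higher fold change than tll1, and their median was −0.15. The lowest of them, nrg1, was close to tll1, at −1.59 ± 0.43 with 9 and 7 against 25 and 27. Its mean reached the minimum of 10 only through the siblings. The highest of these markers was hapln1a, at 1.03 ± 0.28, and both were named after their values were seen. Other lists also held fold changes lower than that of tll1. Among them were alas2 (−1.91), tfr1a (−1.88) and slc4a1a (−1.85) of erythrocytes, ckmb (−1.91) of skeletal muscle and and2 (−2.03) of the fin fold. The medians of the erythrocyte and skeletal muscle lists, −1.40 and −1.36, were above tll1. Of 19 cardiomyocyte rows 1 was lower, an actc1a row that reached the minimum mean only through the siblings. All shares of marker sums given here were chosen after the values were seen.

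The cardiomyocyte list summed to 99618 and 61732 against 162036 and 98796, and its median was −0.32 over 19 rows, 7 of them with both mutants under both siblings. The epicardial list summed to 1250 and 1142 against 1348 and 1214, with a median of −0.43 over 8 genes, 3 of them with both mutants under both siblings. For the endothelial list that number was 9 of 25 and for the endocardial list 4 of 22, beside 18.3% of all genes tested. Markers of neural crest and pharyngeal mesenchyme summed to 644 and 1063 against 617 and 783, those of skin and fin fold to 15545 and 19237 against 16012 and 20970, and neuronal markers to 644 and 337 against 414 and 192. Their medians were 0.24, 0.11 and 1.23. The share of tll1 in the sum of each of these 5 lists was lower in both mutants than in both siblings. For the cardiomyocyte sum its log2 difference was −0.99. The share of bmp1a was lower in both mutants too, except in the cardiomyocyte list. There the groups overlapped, at 0.0713% and 0.157% against 0.079% and 0.116%. Lack of overlap was not counted over all genes for any marker sum, so nothing particular to tll1 or bmp1a is read from these shares.

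Regulators of tolloid proteases had no gene past the threshold and mostly small differences. The list held secreted frizzled-related proteins, which include inhibitors of tolloids in fish and frogs, the Chordin partner twsg1a, the scaffolds olfml3a and olfml3b, the procollagen C-proteinase enhancer pcolcea, and periostins, which bind BMP1 in the mouse. Of 12 tested genes 10 were higher and 2 lower in the mutants on average, with a median log2 fold change of 0.17 beside −0.0016 over all genes tested. None had a p under 0.05 before adjustment, 1 had both mutant values above both siblings, and 0 had both below. The enhancer gene pcolcea, which speeds procollagen cleavage by these proteases, was that one, named after its values were seen, at 192 and 180 in the mutants, 157 and 175 in the siblings and 0.16 ± 0.21 on the log2 scale.

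The most abundant regulators were close between the groups. The periostin gene postnb had 805 and 986 against 596 and 960, with 0.24 ± 0.27 for the log2 fold change. The thrombospondin gene thbs1b had 324 and 280 against 333 and 265, at 0.02 ± 0.22, and sfrp5 had 194 and 251 against 204 and 222, at 0.05 ± 0.22. In each of these 3 the groups overlapped. The inhibitor gene sizzled, the classic tolloid inhibitor of the early fish embryo, was on the list but not among its tested genes.

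BMP ligands and antagonists went both ways, with 8 of 18 tested genes lower, 10 higher and a median of 0.04. In this list 3 genes had both mutant values below both siblings and 3 above, beside 18.3% and 15.7% of all genes tested. Over all genes 0 passed, and 1 gene in each direction had an unadjusted p under 0.05, beside 4.34% of all genes with lower and 2.61% with higher mutant values. The lower was bmp10l, a ligand gene of the bmp10 type, with 8 and 23 against 65 and 31, at −1.64 ± 0.53 and a limma adjusted p of 0.569. The higher was grem2b, a gremlin gene for a BMP antagonist, with 17 and 16 against 4 and 9, at 1.31 ± 0.56 and an adjusted p of 0.713. Both are low genes, and bmp10l varied 2-fold or more within each group. The mean of grem2b reached the minimum of 10 only through the mutants. It is part of the counts above, and with a pseudocount of 10 its fold change was 0.70.

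Abundant genes of the same list overlapped in part. The follistatin-like gene fstl1b had 2422 and 1466 against 2967 and 2140, at −0.42 ± 0.30. The ligand gene bmp4 had 748 and 475 against 904 and 579, at −0.28 ± 0.29, and crim1, whose product binds BMPs, had 265 and 235 against 350 and 225, at −0.17 ± 0.25. In each of these 3 genes at least 1 mutant pool lay above 1 sibling pool.

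Receptors, SMADs and targets of BMP signalling were close to the median of all genes. Of 29 tested, 13 were lower and 16 higher, with a median of 0.02, and none had an unadjusted p under 0.05. Both mutants were below both siblings for 4 genes and above for 5, beside the same 18.3% and 15.7%. The transcription factor gene tbx20 had 312 and 291 against 454 and 239, at −0.13 ± 0.30. The inhibitory SMAD gene smad6a had 341 and 281 against 360 and 251, at 0.04 ± 0.24, and the type I receptor gene bmpr1aa had 292 and 231 against 330 and 288, at −0.25 ± 0.22. Of the 5 tested id genes, targets of BMP named after their values were seen, id1 had 117 and 107 against 84 and 108, id2a 101 and 91 against 87 and 93, id2b 124 and 89 against 123 and 101, and id3 38 and 40 against 45 and 39. The least abundant, id4, had 21 and 5 against 29 and 17 and the largest difference, at −1.02 ± 0.63 with an unadjusted limma p of 0.142. In each of the 5 the groups overlapped.

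Among matrix proteins that tolloid proteases are reported to cleave, mostly in mammals, and relatives of such proteins, 15 of 27 tested genes were lower and 12 higher, with a median of −0.07. In 7 of them, 25.9%, both mutants were below both siblings, beside 18.3% of all genes tested, and in 1 both were above, beside 15.7%. None passed over all genes. At an unadjusted p under 0.05, 4 had lower and 1 had higher mutant values, beside 4.34% and 2.61% of all genes, and nothing particular to the list is read from these counts. The lower ones were fn1a, a fibronectin gene, with 594 and 576 against 1102 and 880 and −0.75 ± 0.21, col11a1b, a fibrillar collagen gene, with 364 and 592 against 699 and 707 and −0.60 ± 0.26, the small proteoglycan gene fmoda, with 127 and 155 against 184 and 221 and −0.52 ± 0.23, and col5a2b, another fibrillar collagen gene, with 3 and 3 against 20 and 14 and −2.15 ± 0.62. In each of these 4 genes both mutants were below both siblings. Of them, col5a2b had a mean of 10, the minimum itself, which it reached only through the siblings. It is part of the counts above, and with a pseudocount of 10 its fold change was −1.05. The higher one was loxl1, a gene of the lysyl oxidase family, with 43 and 32 against 25 and 17 and 0.82 ± 0.35. Their limma adjusted p lay between 0.459 and 0.713.

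The most abundant substrates were fibrillar collagens. The collagen I gene col1a1b had 1264 and 1542 against 1649 and 1733, at −0.28 ± 0.22, and col1a1a had 1159 and 1334 against 1507 and 1690, at −0.36 ± 0.22. Both had lower values in both mutants. The collagen V gene col5a1 had 1110 and 1294 against 1453 and 1285, at −0.19 ± 0.22, with mutant 2 above sibling 2.

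Of other astacin proteases 3 were tested. The hatching enzyme genes he1.1, with 398 and 1099 against 362 and 773, and he1.2, with 191 and 509 against 148 and 311, are known from the hatching gland of the embryo, and npsn, nephrosin, had 11 and 36 against 12 and 44. In all 3 genes replicate 2 was the higher pool of each group, and the groups overlapped, at log2 fold changes of 0.32 ± 0.48, 0.54 ± 0.47 and −0.20 ± 0.67. In tll1 replicate 1 was the higher pool of each group, and in bmp1a the higher pool was mutant 2 and sibling 1.

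**Figure D3:**
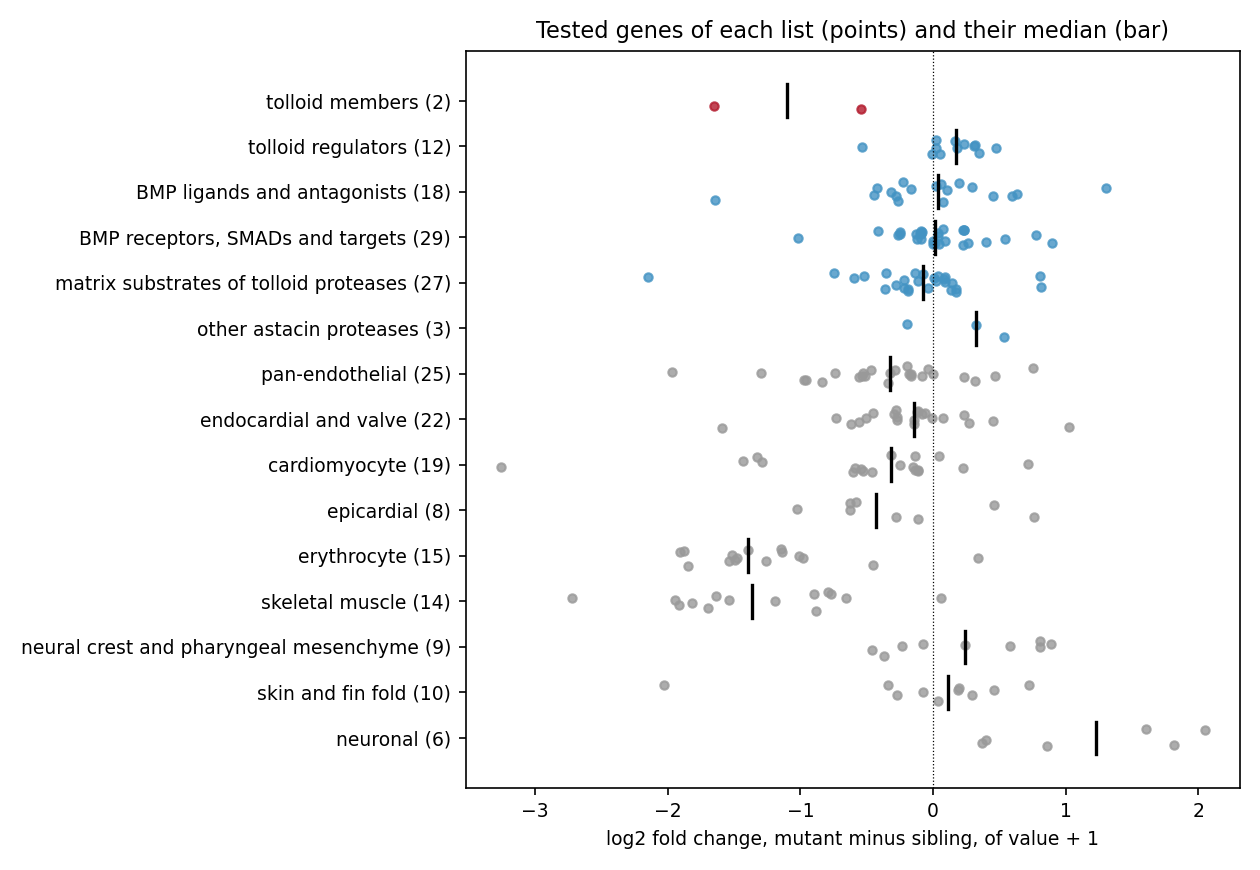
Log2 fold change of value + 1, mutant minus sibling (horizontal axis), of each tested gene (points) of the tolloid members, of 5 pathway lists (blue) and of 9 marker lists (grey), with the number of genes in brackets and a bar at the median. The 2 tested members lie at −1.65 (tll1) and −0.54 (bmp1a), the medians of the pathway lists lie between −0.07 and 0.32, and those of erythrocyte and skeletal muscle markers at −1.40 and −1.36.

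Among 5410 other genes with a mean of at least 50, the genes most like tll1 were found by the root mean square distance of log2 values centred on each gene's mean over the 4 libraries. The nearest was BX005417.1, with 30 and 16 against 86 and 88, at a distance of 0.15. The heme synthesis gene hmbsb followed, with 46 and 32 against 114 and 93, at 0.21. The ventricular myosin gene myh7, with 13077 and 7093 against 31906 and 21256, and cahz, a carbonic anhydrase gene of red cells, with 184 and 133 against 456 and 375, were at 0.22 and 0.23. The adenylosuccinate synthase gene adssl1, with 40 and 28 against 115 and 80, was at 0.24. In all 5, as in tll1, mutant 2 was the lowest pool, and none passed limma's adjusted threshold. By this measure tie1 was number 32, cdh5 number 334, bmp1a number 936 and nfatc1 number 2320, and 4 libraries allow many genes to share a pattern.

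The fold change of tll1 kept its sign under each of the 13 other ways of processing that were run, but most could not turn it. The filters, the robust setting and the replicate block left it at −1.65. Since the groups did not overlap, neither another pseudocount nor leaving out 1 library can reverse it. Rescaling could, and TMM scaling gave −1.67, quantile normalization −1.63 and totals without mitochondrial ribosomal RNA −1.59. Without 1 library the fold change of tll1 lay between −2.12, without mutant 1, and −1.19, without mutant 2. That of bmp1a lay between −0.76, without mutant 2, and −0.32, without mutant 1.

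**Figure D4:**
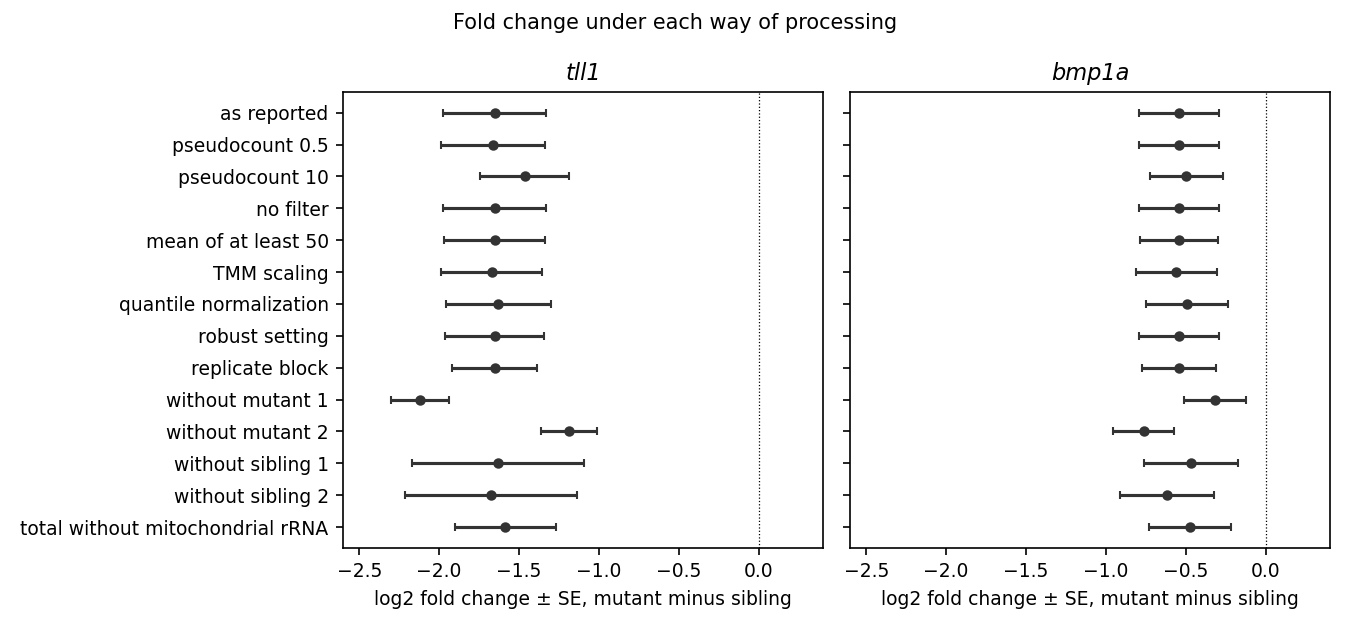
Log2 fold change of value + 1, mutant minus sibling, with its standard error (horizontal axis), of tll1 (left) and bmp1a (right) as reported and under each alternative processing or with 1 library left out. Values of tll1 lie between −2.12 and −1.19 and those of bmp1a between −0.76 and −0.32, and the widest shifts come from leaving out 1 mutant pool.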

How the data were processed

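Per the labels' protocols, total RNA of dissected hearts was treated with DNase and 2 ng entered a stranded total RNA kit for small inputs. Tools named in the submitters' processing notes, with no roles, are STAR 2.4.0a, featureCounts 1.4.5-p1, Subread and FastQC, and the builds are GRCz11 and danRer11. The authors deposited 1 table of normalised counts rounded to whole numbers, treated here as a score without a fixed unit. Not given in the sources used here are the normalization, the gene filter and the strand setting of the counting. Reads per unit were estimated from the spacing of values in each library. They could not be recovered where 1 unit exceeds 1 read, so no count test was run.

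Values were analysed as log2(value + 1), a scale on which low genes change less than in truth. The 12118 genes averaging at least 10 were fitted in R 4.3.3 by limma 3.58.1, its variance prior following the mean, and p-values were Benjamini-Hochberg adjusted over all of them. The fit was tested on simulated data. Ratios were compared by exact permutation of the 4 libraries. Members and lists were chosen with earlier results of these data known. Named are the members, their references, the 3 most abundant genes of each pathway list, those at an unadjusted p under 0.05 and the 5 genes most like tll1. Lists share some genes, such as postnb, bmp4 and col2a1a. Intervals and read estimates do not cover duplicate reads. Alternatives were the pseudocount, filter, scaling, limma's robust setting, a replicate block and leaving out each library.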

Additional observations from a re-analysis of the deposited data

How the results depend on the processing

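With 2 pools a group and an estimated 23 to 188 reads for tll1, the data separate only large differences, and bmp1b and chrd could not be tested. The count of genes past the threshold, 0 as reported, was 13 with a mean of at least 50, 8 after TMM scaling, 16 with the robust setting and 5 with totals without mitochondrial ribosomal RNA, a scaling chosen after seeing the data. Nothing in the labels says that replicate numbers pair the pools. Deviations of same-numbered pools from their group means correlated at 0.198 across 12118 genes. With the replicate block 95 genes and 1 member passed, tll1, at −1.65 ± 0.27 with a limma adjusted p of 0.0248. Over its other alternatives that adjusted p ran from 0.0831 to 0.903, and that of bmp1a from 0.407 to 0.903 with the block included. The block called tie1 and all 5 genes most like tll1 as well, and tie1 also passed with a mean of at least 50 and the robust setting. Of 612 alternative values 561 were counted as unchanged, by rules that differ between results. For genes the rule was direction and side of the threshold, for ratios direction alone, and for counts and list medians closeness in size. List medians could therefore turn sign without being counted as turned. Without 1 library, that of other astacin proteases ranged from −0.41 to 1.05. The median of BMP ligands and antagonists ranged from −0.19 to 0.068, and that of receptors, SMADs and targets from −0.11 to 0.13. Signs turned for myl7 under quantile normalization (0.0095), nfatc1 with totals without mitochondrial ribosomal RNA (0.0091) and the ratio of bmp1a to cdh5 with a pseudocount of 10 (0.0091). Without 1 library, log2 fold changes that turned sign ranged from −0.61 to 0.048 for bmp4, −0.49 to 0.15 for crim1, −0.41 to 1.05 for he1.1, −0.17 to 1.24 for he1.2, −0.60 to 0.37 for myl7, −0.32 to 0.20 for nfatc1, −1.09 to 0.70 for npsn, −0.11 to 0.58 for postnb, −0.13 to 0.24 for sfrp5, −0.22 to 0.30 for smad6a, −0.59 to 0.33 for tbx20 and −0.14 to 0.18 for thbs1b. Log2 ratio differences that turned sign ranged from −0.62 to 0.56 for bmp1a to cdh5, −1.13 to 0.28 for bmp1a to myl7, −0.11 to 0.74 for tll1 to tie1 and −0.81 to 0.054 for tll1 to the erythrocyte sum, −0.55 to 0.53 for bmp1a to the endothelial sum and −0.43 to 0.71 for bmp1a to the cardiomyocyte sum. The cause was not tested. Ratios of tll1 to cdh5 ranged from −1.50 to −0.79, to nfatc1 from −1.98 to −1.21 and to myl7 from −1.79 to −1.29.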
